A study of Rattus norvegicus with 7 samples.

Results

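The 9 genes of renal drug and anion handling described here were counted in single nuclei of rat kidney and chosen by symbol among the 25399 genes of the count tables: Slc22a6, Slc22a8, Slc22a7, Slc22a12, Slc22a2, Slco4c1, Slc47a1, Abcc2 and Abcc4. All 9 members had 1 matching gene each, and all 9 were counted in every library when all retained nuclei were summed. The kidneys came from HSRA rats at 4 weeks of age, a line in which some animals are born with 1 kidney. The first group is titled 1 Kidney (3 libraries, each from its own animal) and the second 2 Kidney (4 libraries). They are taken to be HSRA-S and HSRA-C, names matched to the titles by their numbers (3 and 4). Neither group was treated, both belong to the same line, and the labels name no transgene and no sex. Nuclei came from archived tissue, a central piece that held cortex and medulla, and were captured with the droplet-based 10x 3′ assay.

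These carriers move drugs, metabolites and urate across the wall of the proximal tubule, the segment that follows the glomerulus. Uptake carriers, most of them on the blood side (OAT1, OAT3, OAT2, OCT2 and OATP4C1, encoded by Slc22a6, Slc22a8, Slc22a7, Slc22a2 and Slco4c1), bring organic anions or cations into the cell. Carriers of the lumen side (MATE1, MRP2 and MRP4, encoded by Slc47a1, Abcc2 and Abcc4) export cations or anions into the urine, and URAT1, encoded by Slc22a12, takes urate back from it. The tubule begins as a convoluted part near the glomerulus and ends as a straight part that enters the outer medulla.

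The members differ in the DNA before their start sites. The 250 bases before the start are shown for the 2 members with the largest lower and 2 of the 3 with the largest higher level in the straight part because members that move together across the tubule invite a look at their promoters. Sequences are from RefSeq, build GRCr8, 5′ to 3′ along the gene's strand, and capitals mark a match to a motif searched on both strands. RefSeq promoters were at hand for 7 of the 9 members, all but Slc22a6 and Slc47a1.
Slc22a8 (chr1:214927034-214927283, + strand): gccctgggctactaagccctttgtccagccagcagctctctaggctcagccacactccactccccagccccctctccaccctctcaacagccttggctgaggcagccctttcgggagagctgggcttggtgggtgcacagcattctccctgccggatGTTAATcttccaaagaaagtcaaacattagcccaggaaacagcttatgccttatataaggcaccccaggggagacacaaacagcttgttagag
Abcc4 (chr15:102181365-102181614, − strand): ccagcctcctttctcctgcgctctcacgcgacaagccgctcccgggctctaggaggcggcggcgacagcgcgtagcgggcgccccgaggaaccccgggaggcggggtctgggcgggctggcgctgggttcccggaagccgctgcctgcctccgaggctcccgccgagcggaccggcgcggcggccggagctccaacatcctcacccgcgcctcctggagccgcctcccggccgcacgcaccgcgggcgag
Slc22a2 (chr1:50711020-50711269, − strand): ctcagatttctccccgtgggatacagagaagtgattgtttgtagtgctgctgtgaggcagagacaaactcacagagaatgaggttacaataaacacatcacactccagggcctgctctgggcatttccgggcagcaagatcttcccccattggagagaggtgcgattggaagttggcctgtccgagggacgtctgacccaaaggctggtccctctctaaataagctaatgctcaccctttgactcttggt
Slco4c1 (chr9:104676463-104676712, − strand): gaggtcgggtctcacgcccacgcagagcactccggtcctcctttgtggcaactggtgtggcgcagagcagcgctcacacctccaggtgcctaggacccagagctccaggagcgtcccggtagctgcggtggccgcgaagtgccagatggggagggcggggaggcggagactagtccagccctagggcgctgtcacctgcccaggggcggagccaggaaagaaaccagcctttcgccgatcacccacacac
The motif GTTAAT had 1 match before Slc22a8, beginning 93 bases before the start, and 1 before Abcc2, where it lies on the reverse strand; 6.45% of 33469 promoters held it. The nuclear receptor half-site AGGTCA was found 2 times before Abcc2 and in no other member (14.1% of promoters), and the HNF4 motif CAAAGTCCA in none of the 7 (0.338%). The Abcc4 window stood apart in base composition. G and C made up 77.6% of its bases and it held 37 CG pairs, more than 98.1% of promoters. The other 3 windows shown had 2 CG pairs (Slc22a8), 5 (Slc22a2) and 17 (Slco4c1).

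Of 37048 barcodes, a mean of 5293 per library, 31250 were retained as nuclei, between 2265 and 4407 per 1-kidney library and between 3975 and 5946 per 2-kidney library. The retained UMIs (unique molecules counted) summed to between 5604234 and 18107513 and between 15226036 and 26775897. In all, 166 barcode sequences occurred in 2 libraries each. Libraries carry the set codes P1117 (all 3 1-kidney libraries and 2-kidney replicates 1 and 2) and P1117B (2-kidney replicates 3 and 4), so the set varies among 2-kidney libraries only, and values within P1117 are given beside results where it matters. The Y-linked transcripts Kdm5d (99.2 to 127 CPM, counts scaled to 1000000 UMIs per library) and Eif2s3y (46.5 to 50.5 CPM) were counted in all 7 libraries at like levels, while Ddx3y was at 0 in 6 libraries and at 0.0552 CPM in the other.

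Nuclei named as proximal tubule fell into 3 of 23 clusters. Of these 2 held the straight part, with the amino acid transporter gene Slc7a13 as their leading marker (3397 CPM in straight and 128 CPM in convoluted nuclei, means over 7 libraries), and 1 held the convoluted part, where the lactate transporter gene Slc5a12 averaged 1110 CPM, against 145 CPM in straight nuclei. The convoluted part made up 15.7%, 12.9% and 16.3% of proximal tubule nuclei in the 1-kidney libraries, against 20%, 32.9%, 49.5% and 43.3% in the 2-kidney libraries. Every 1-kidney library lay below every 2-kidney library (15.0% ± 1.81 and 36.4% ± 12.9, SD, n = 3 and 4; exact two-sided permutation p = 0.0571, the smallest this design allows). Within set P1117 the 2-kidney mean was 26.5% (exact p = 0.200, the smallest for 3 against 2). These shares cover named nuclei only. A cluster of 499 nuclei that best matched convoluted proximal tubule stayed unnamed, as its leading marker reached 2.95-fold, short of the 3-fold bound. Unnamed clusters of 3064 and 1976 nuclei were also rich in Slc34a1 (33553 and 24431 CPM).

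The 9 transporters split between the parts of the proximal tubule. To compare the parts by single markers, nuclei with at least 1 Slc7a13 UMI and no Slc5a12 UMI (the Slc7a13 gate, straight) were set against nuclei with the reverse (the Slc5a12 gate, convoluted), both within proximal tubule nuclei and within each library. Of the 9 members 4 were higher in the Slc7a13 gate and 4 were lower (edgeR quasi-likelihood test with Benjamini-Hochberg adjustment, all 7 libraries in both gates, library as a block). Slco4c1 and Slc22a7, among those called higher, entered the test only through the Slc7a13 gate. Over 9716 genes, 18.6% were called higher and 18.7% lower, so calls were common here and the sizes carry more than the count.

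**Figure D1:**
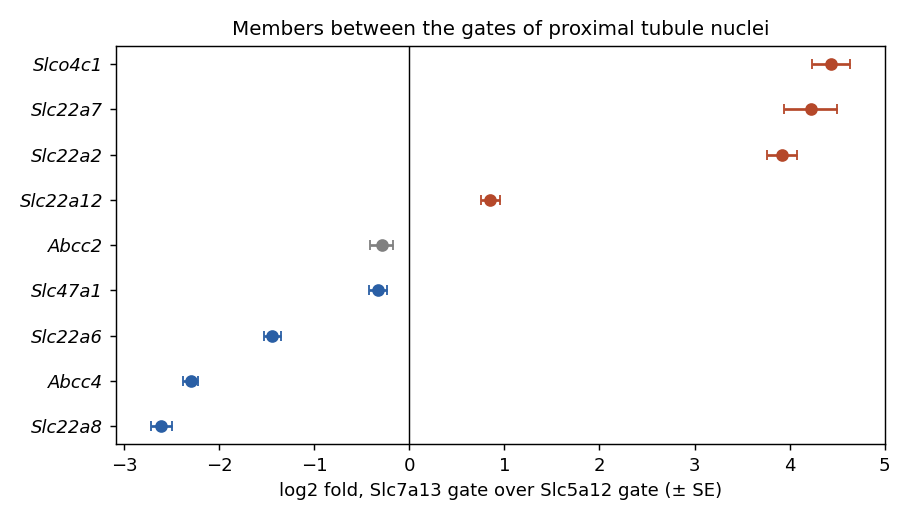
Log2 fold of each member between the gates (x axis, Slc7a13 gate over Slc5a12 gate, points ± SE, 7 libraries); red points passed as higher, blue as lower, grey did not pass. Slco4c1, Slc22a7 and Slc22a2 sit between 3.92 and 4.44 and Slc22a8 and Abcc4 at −2.61 and −2.30.

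Among the uptake carriers, Slco4c1, which carries cardiac glycosides and thyroid hormones, had 80.4 CPM in the lowest, 127 in the median and 150 in the highest library of the Slc7a13 gate, against 3.15, 7.04 and 17.4 CPM in the Slc5a12 gate. The gates did not overlap, and the log2 fold was 4.44 ± 0.20 (SE, edgeR adjusted p = 1.03e-18), resting on 25 UMIs in all in the Slc5a12 gate. Slc22a7, the OAT2 gene, had 44.1, 73.0 and 116 CPM in the Slc7a13 gate, against 0, 4.08 and 17.4 CPM in the Slc5a12 gate. It was higher in 7 of 7 libraries (4.22 ± 0.28, adjusted p = 3.47e-14), with 15 UMIs in all in the Slc5a12 gate. Slc22a2, the cation uptake carrier OCT2, had 188, 225 and 361 CPM in the Slc7a13 gate, against 8.72, 14.1 and 49.0 CPM in the Slc5a12 gate (3.92 ± 0.16, adjusted p = 8.12e-20). All 3 genes were thus far more abundant in the Slc7a13 gate in each library. Slco4c1 and Slc22a7 passed the filter on low counts only through that gate. Their folds are therefore imprecise in size, and their adjusted p-values are not read as support.

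The other uptake carriers lay the opposite way. Slc22a8, the OAT3 gene, had 41.9, 62.1 and 122 CPM in the Slc7a13 gate, against 389, 446 and 591 CPM in the Slc5a12 gate, so the gates did not overlap. It was lower in 7 of 7 libraries (log2 fold −2.61 ± 0.11, edgeR adjusted p = 4.80e-19). Slc22a6, which encodes OAT1, the classical carrier of p-aminohippurate, had 165, 249 and 287 CPM in the Slc7a13 gate, against 502, 658 and 785 CPM in the Slc5a12 gate (−1.44 ± 0.09, adjusted p = 2.24e-15). The difference was 2.70-fold for Slc22a6 and 6.11-fold for Slc22a8, both lower in the Slc7a13 gate.

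Of the carriers of the lumen side, Abcc4 differed most. This ATP-driven exporter of anions and cyclic nucleotides had 175, 254 and 316 CPM in the Slc7a13 gate, against 898, 1149 and 1519 CPM in the Slc5a12 gate (−2.30 ± 0.08, edgeR adjusted p = 4.57e-21). Slc22a12, the urate carrier, was higher in the Slc7a13 gate by a smaller step (277, 384 and 564 CPM, against 139, 202 and 404 CPM), with overlapping ranges but the same direction in 7 of 7 libraries (0.85 ± 0.10, adjusted p = 2.01e-08). Slc47a1, the cation exporter MATE1, had 126, 179 and 241 CPM in the Slc7a13 gate, against 179, 232 and 286 CPM in the Slc5a12 gate (−0.33 ± 0.09, adjusted p = 0.00421). That call did not hold without the library as a block (adjusted p = 0.0895) or with gates drawn over all retained nuclei (0.731). Abcc2, which exports conjugated anions, did not pass (60.3, 82.4 and 104 CPM, against 70.4, 88.8 and 139 CPM; −0.29 ± 0.12, adjusted p = 0.0536), although it passed as lower without 2-kidney replicate 1 or 4 (0.0136 and 0.0337).

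The shares of nuclei in which a member was counted followed the same split. With each nucleus thinned to 1000 UMIs, Slc22a2 was counted in 20.8% of 5030 straight and 2.49% of 2327 convoluted nuclei, and Slco4c1 in 10.1% and 0.430%. Slc22a8 was counted in 6.32% of straight and 34.7% of convoluted nuclei, and Abcc4 in 20.6% and 64.3%. In podocytes, glomerular cells that should lack these carriers, Slc22a2 was counted in 1.40%, Slco4c1 in 1.00%, Slc22a8 in 3.41% and Abcc4 in 11.7% of 998 nuclei. In endothelium the shares were 2.29%, 1.23%, 10.4% and 38.9% of 1705 nuclei. The convoluted share of Slco4c1 was thus below those of podocytes and endothelium, and that of Slc22a2 was close to that of endothelium. The straight shares of Slc22a8 and Abcc4 lay below those of endothelium, though above those of podocytes. Only the convoluted share of Slco4c1 lay below both cell types and is read as not above background. Whether the other shares stand above background was not tested, and the folds between the gates are not corrected for it. Thinning left out 125 straight, 66 convoluted, 54 podocyte and 1279 endothelial nuclei. Unthinned, the shares in straight, convoluted, podocyte and endothelial nuclei were 45.7%, 8.90%, 3.61% and 4.46% for Slc22a2 and 45.3%, 90.3%, 27.9% and 43.7% for Abcc4, at median depths of 3088, 3877, 2552 and 1114 UMIs.

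The straight clusters differed in level. The larger straight cluster (4560 nuclei, leading marker Slc7a13 at 14.3-fold over the median cluster) held more Slco4c1 (135 ± 29.1 CPM, SD over 7 libraries) than the smaller (595 nuclei, 5.12-fold; 40.9 ± 9.93 CPM). Slc22a2 stood at 279 ± 79.1 and 124 ± 46.2 CPM and Slc22a7 at 77.8 ± 24.9 and 39.7 ± 14.4 CPM in these clusters. Abcc4 ran the other way, with 201 ± 32.1 CPM in the larger and 569 ± 112 CPM in the smaller, between the larger straight and the convoluted cluster (1172 ± 219 CPM). The smaller cluster also held more of the convoluted marker Slc5a12 (418 CPM, against 78.3 CPM in the larger) and of Slc34a1 (31524 and 12185 CPM, with 31386 CPM in the convoluted cluster), and its median doublet score was higher (0.0555 and 0.0259). The part of mixed nuclei in these levels was not tested. Clusters were built from the same counts, so these levels are a description with no test. None of the 9 members was among the 2000 variable genes that formed the clusters.

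**Figure D2:**
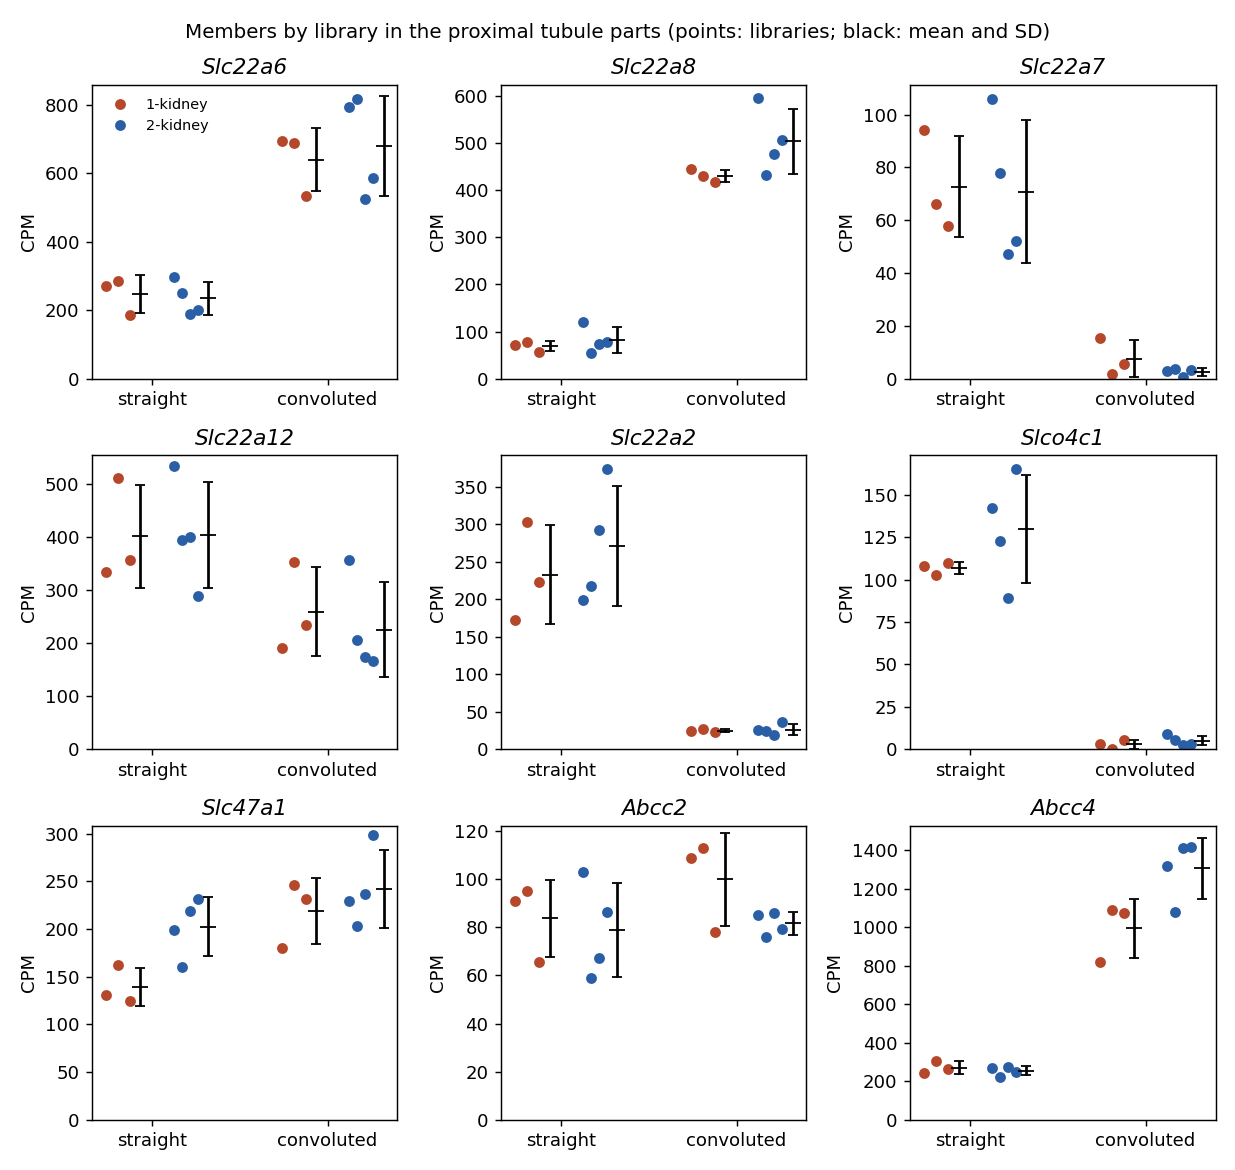
CPM of each member (y axis) in every library of the straight and convoluted clusters (x axis), 1-kidney in red and 2-kidney in blue; black bars are the group mean and SD (n = 3 and 4). Slc22a7, Slc22a2 and Slco4c1 lie near 0 in the convoluted cluster and Slc22a8 and Abcc4 are far higher there than in the straight cluster, in both groups.

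Every member was also counted outside the proximal tubule, and Slc22a6 kept close to the proportion it has in convoluted RNA. In podocytes the 9 members ranged from 5.06 CPM (Slc22a7) to 110 CPM (Abcc4), means over 7 libraries. The phosphate transporter gene Slc34a1, the most abundant proximal tubule marker, was counted in every class, and a single source of free RNA keeps its genes in 1 ratio within a library. Slc22a6 per Slc34a1 UMI, divided by the same ratio in the convoluted cluster of the same library, had a median between 0.734 (connecting tubule) and 1.06 (thick ascending limb) over the 12 other named sets of nuclei. Among these sets the straight cluster, itself proximal tubule, had 0.912 (0.791 to 1.01), so this ratio does not tell expression from free RNA. Single libraries ranged from 0 to 1.18 in podocytes and from 0.709 to 1.35 in thick ascending limb. Levels of Slc22a6 outside the proximal tubule, such as 251 ± 79.2 CPM in endothelium and 117 ± 32.6 CPM in thick ascending limb, are not read as expression there, and their source was not tested.

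Other members departed from the convoluted ratio. Slc22a2 per Slc34a1 UMI was 4.62 times that of the convoluted cluster in thick ascending limb (2.76 to 7.08) and 2.84 times in intercalated cells (1.40 to 5.57). Both were above 1 in 7 of 7 libraries, but below the 24.7 times of the straight cluster. This was not particular to these classes. Over the named classes outside the proximal tubule the median ran from 2.07 (distal convoluted tubule, 0.624 to 5.73) to 5.59 (podocytes, 0 to 19.5). Slc22a7 was at 12.9 times in thick ascending limb (4.92 to 22.4), against 57.9 times in the straight cluster (14.6 to 216), with overlapping ranges. Its ratios are imprecise, resting on 28 UMIs in all in the convoluted cluster and 40 in thick ascending limb. Slc22a12 was at 1.59 times (1.29 to 1.70), against 4.20 times (3.47 to 5.20). Podocytes had 11.7 times for Slc22a7 (0 to 53.1) and 1.84 times for Slc22a12 (1.00 to 4.05). These medians lie between those of the convoluted and the straight cluster, and their source was not tested.

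Abcc4 lay above both parts in some classes, since its ratio in the straight cluster was 0.535 times that in the convoluted cluster. In intercalated cells, the acid-base cells of the collecting duct, Abcc4 per Slc34a1 UMI was 2.73 times that of the convoluted cluster in the median library (2.09 to 4.45, above 1 in 7 of 7 libraries). In the class of thin limb and parietal epithelium it was 2.45 times (1.82 to 3.80) and in thick ascending limb 2.29 times (1.49 to 3.22), again in 7 of 7 libraries. Podocytes had 1.5 times (1.22 to 1.99), also above 1 in all 7 libraries, while the distal convoluted tubule (1.06, 0.831 to 1.55) and the connecting tubule (0.992, 0.877 to 1.40) lay around 1. Among intercalated nuclei the cluster led by the anion exchanger gene Slc4a1 had 1167 ± 180 CPM, close to the 1172 ± 219 CPM of the convoluted cluster, and the cluster led by Slc26a4 had 480 ± 55.7 CPM. With nuclei thinned to 1000 UMIs, Abcc4 was counted in 49.9% of 1368 intercalated and 34.4% of 2994 thick ascending limb nuclei. The thick ascending limb share lay below that of endothelium (38.9%) and above that of podocytes (11.7%), so the share alone is not read as expression in that class.

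**Figure D3:**
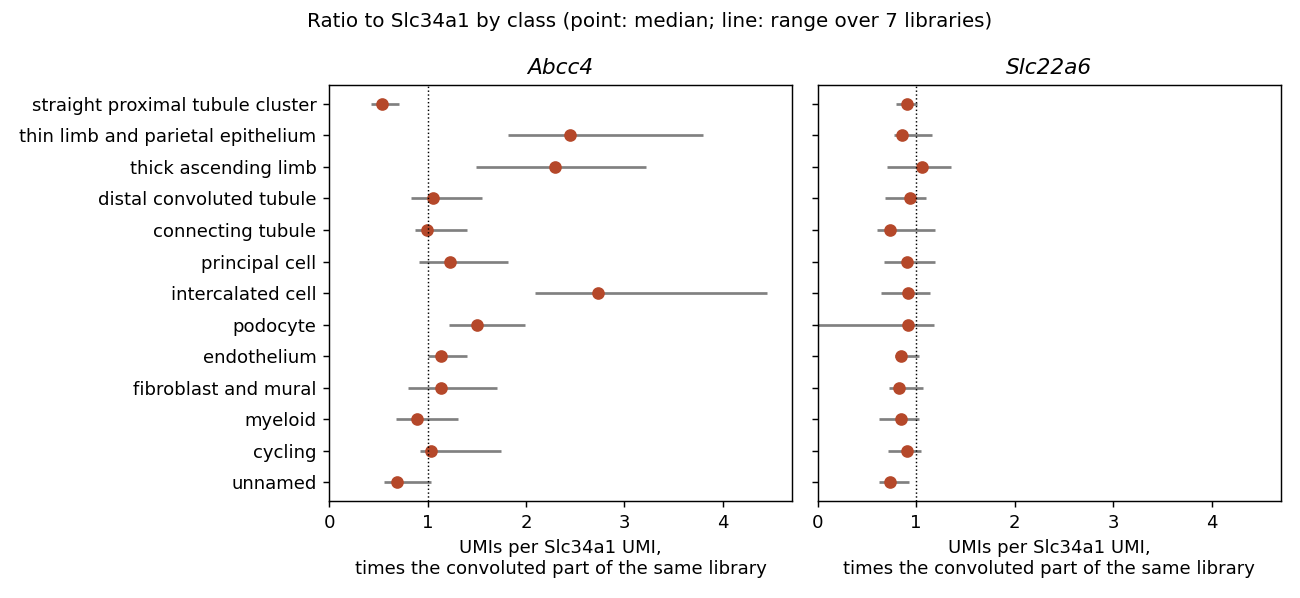
UMIs of Abcc4 (left) and Slc22a6 (right) per Slc34a1 UMI in each class (rows), divided by the same ratio in the convoluted cluster of the same library (x axis); points are medians and lines the range over 7 libraries. Abcc4 lies above 1 in intercalated cells (2.73), thin limb and parietal epithelium (2.45) and thick ascending limb (2.29), and Slc22a6 stays near 1.

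Across classes the straight cluster ranked first for Slc22a12 (404 ± 90.6 CPM), Slc22a2 (254 ± 70.9), Slco4c1 (120 ± 25.8) and Slc22a7 (71.6 ± 22), SD over 7 libraries. The convoluted cluster ranked first for Abcc4 (1172 ± 219 CPM), Slc22a6 (662 ± 118), Slc22a8 (472 ± 63.0), Slc47a1 (232 ± 37.1) and Abcc2 (89.4 ± 15.0). The neighbouring straight levels of Slc47a1 (175 ± 41.9 CPM) and Abcc2 (81.0 ± 17.0 CPM) lay within or near those spreads. For Slc22a6 the unnamed nuclei came second (412 ± 52.6 CPM), and myeloid (346 ± 102), cycling (288 ± 67.9) and endothelial nuclei (251 ± 79.2 CPM) also had higher means than the straight cluster (240 ± 47.2 CPM).

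**Figure D4:**
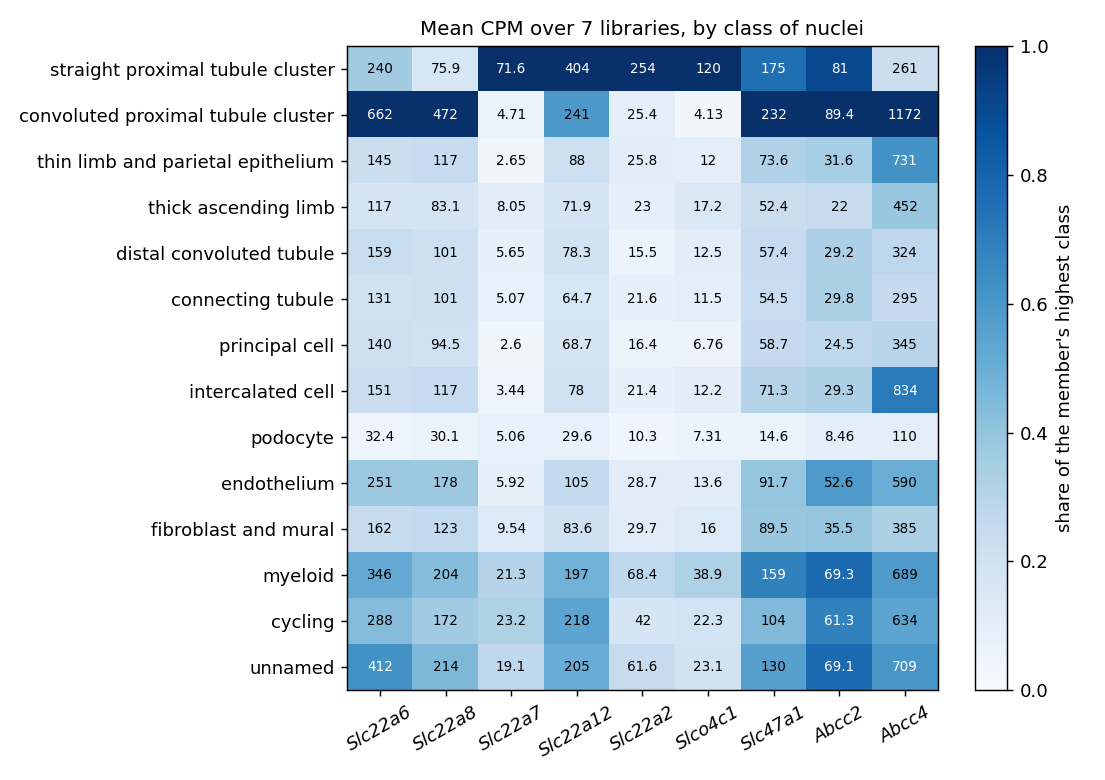
Mean CPM over 7 libraries of each member (columns) in each class of nuclei (rows), shaded by the share of that member's highest class. The darkest cells of Slc22a7, Slc22a12, Slc22a2 and Slco4c1 are in the straight row and the others in the convoluted row, and Abcc4 is also high in intercalated cells (834 CPM).

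Over the 23 clusters, the gene whose log2(CPM + 1) followed Slc22a6 most closely was Slc34a1 (Pearson r = 0.99), and Folh1 (0.98) was among the 2 genes closest to Slc22a8. Slc22a12 was closest to Abcg2 (0.99), a urate and drug exporter, and to Pm20d1 (0.99). Slc47a1 was closest to Glyat (0.97), which conjugates acids with glycine, and Nhsl1 (0.97), Slc22a2 to Acss2 (0.98) and Skint10 (0.97), and Abcc2 to the urea cycle gene Ass1 (0.97) and AABR07066188.1 (0.97). Slco4c1 was closest to the histamine methyltransferase gene Hnmt (0.90) and to Slc7a13 itself (0.90), Slc22a7 to Ptprq (0.92) and AABR07058656.1 (0.91), and Abcc4 to Mab21l3 (0.92) and Ncor1 (0.88). The second gene for Slc22a6 was AABR07004221.2 (0.98). Clusters share libraries and free RNA, so these values describe likeness and carry no test.

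Between 1-kidney and 2-kidney libraries, none of the 9 members passed the test in proximal tubule nuclei. At an unadjusted p under 0.05 3 were lower, Slc22a8, Abcc4 and Slc47a1, but none passed the adjustment, and 0% of 11131 genes were called by edgeR (1859 had an unadjusted p under 0.05). With 2-fold changes made in simulated counts of this comparison, 55% were recovered, and with 4-fold changes 99%. DESeq2 called 44 genes higher and 77 lower and, among the members, Slc22a8 as lower (adjusted p = 0.0369).

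Slc22a8 had 150, 144 and 133 CPM in proximal tubule nuclei of the 1-kidney libraries, against 239, 169, 302 and 255 CPM in the 2-kidney libraries. Every 1-kidney library was below every 2-kidney library (log2 fold −0.78 ± 0.19 SE, edgeR adjusted p = 0.235). Abcc4 had 363, 455 and 433 CPM in the 1-kidney libraries, against 531, 481, 918 and 731 CPM in the 2-kidney libraries, again without overlap (−0.70 ± 0.23, edgeR adjusted p = 0.246). Slc47a1 had 142, 178 and 146 CPM, against 206, 173, 229 and 259 CPM, with 1 pair of libraries overlapping (−0.50 ± 0.17, edgeR adjusted p = 0.246). The other 6 members lay between −0.29 ± 0.17 (Slc22a6) and 0.34 ± 0.38 (Slc22a7), with overlapping groups. How many of all tested genes separate the groups was not counted, so separation is not read as particular to Slc22a8 and Abcc4.

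Slc22a8 and Abcc4 are also the members with the largest lower level in the Slc7a13 gate, and the convoluted share of nuclei differed between the groups, as given above. Within the straight cluster Slc22a8 had 70.6, 77.5 and 56.7 CPM in the 1-kidney libraries, against 120, 54.9, 72.8 and 78.7 CPM in the 2-kidney libraries (−0.25 ± 0.22, edgeR adjusted p = 0.598). Within the convoluted cluster it had 444, 429 and 418 CPM, against 596, 433, 477 and 507 CPM (−0.20 ± 0.17, edgeR adjusted p = 0.632). Both folds were nearer 0 than that over both parts together. Inside the gates the values differed from those of the clusters: in the Slc7a13 gate Slc22a8 had 41.9, 62.1 and 48.4 CPM in the 1-kidney libraries, against 108, 61.5, 96.2 and 122 CPM in the 2-kidney libraries, with overlap. In the Slc5a12 gate it had 440, 441 and 389 CPM, against 591, 446, 484 and 493 CPM, with every 1-kidney library below every 2-kidney library. The groups were not tested within the gates. Slc5a12, on which the gates select, was itself higher in every 1-kidney library within both clusters. It had 204 ± 42.9 CPM in 1-kidney and 101 ± 16.3 CPM in 2-kidney libraries in the straight cluster (SD). In the convoluted cluster it had 1418 ± 170 and 878 ± 102 CPM. The gates therefore need not select nuclei alike in both groups. Abcc4 stood at 0.08 ± 0.15 in the straight cluster (240, 306 and 261 CPM in 1-kidney, against 269, 223, 276 and 249 CPM in 2-kidney libraries). In the convoluted cluster it stood at −0.37 ± 0.19 (819, 1089 and 1073 CPM, against 1318, 1077, 1410 and 1417 CPM; edgeR adjusted p = 0.439).

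In the straight cluster Slc47a1 had 131, 162 and 124 CPM in the 1-kidney libraries, against 199, 160, 219 and 231 CPM in the 2-kidney libraries (−0.54 ± 0.17, edgeR adjusted p = 0.254). In the convoluted cluster it was −0.11 ± 0.18 (edgeR adjusted p = 0.818). Of the 9 members none was called in the straight cluster (0% of 10629 genes, 1645 at an unadjusted p under 0.05, 27 higher and 43 lower by DESeq2, with no member among them). In the convoluted cluster 7 members passed the filter on low counts and none was called (0% of 7464 genes, 902 at an unadjusted p under 0.05, 8 higher and 24 lower by DESeq2, no member). The 2 members that did not pass the filter were Slc22a7 and Slco4c1, with 28 and 39 UMIs over all 7 libraries.

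**Figure D5:**
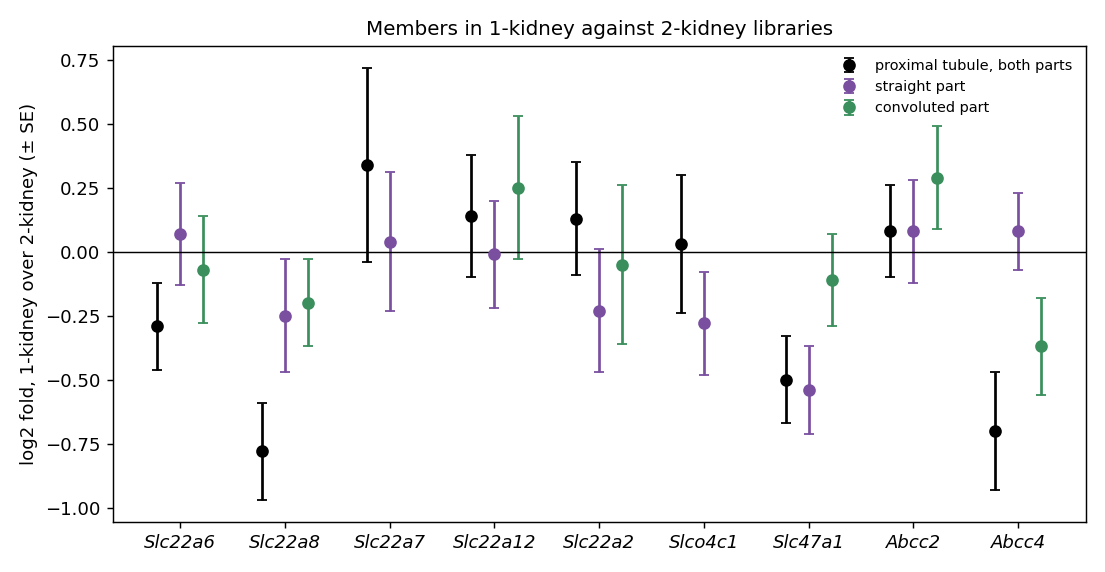
Log2 fold of each member, 1-kidney over 2-kidney (y axis, points ± SE, n = 3 and 4), in all proximal tubule nuclei (black), the straight (purple) and the convoluted cluster (green). Slc22a8 is lower over both parts (−0.78) than within the clusters (−0.25 and −0.20), and Slc22a7 and Slco4c1 have no convoluted value.

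The difference of the 1-kidney effect between the parts was tested directly, and 0 of 9 members passed (0% of 11055 genes; 591 at an unadjusted p under 0.05, and 0 by DESeq2). Abcc4 came nearest, with a straight minus convoluted difference of 0.45 ± 0.13 (edgeR adjusted p = 0.753), then Slc47a1 (−0.44 ± 0.16, edgeR adjusted p = 0.772). Slc22a7 and Slco4c1 entered this test only through the straight cluster, so their differences are not read.

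Markers of other segments and the library set moved with the groups. Of 15 marker lists of other cells and states 3 separated the groups in proximal tubule nuclei. Summed markers of the thick ascending limb were lower in the 1-kidney libraries (517 to 873 CPM, 7 genes) than in the 2-kidney libraries (1000 to 1315 CPM). Those of parietal epithelium (102 to 163 CPM, against 202 to 231 CPM, 5 genes) and thin limb (45.4 to 63.2 CPM, against 68.6 to 131 CPM, 8 genes) were lower too, and no gene of these 3 lists was at 0. The libraries of set P1117B are all 2-kidney. Within set P1117 the proximal tubule log2 folds were −0.51 for Slc22a8, −0.28 for Abcc4 and −0.28 for Slc47a1 (edgeR adjusted p = 0.340, 0.671 and 0.661). The part of these measures in the differences was not tested otherwise, and fewer convoluted nuclei and less RNA per nucleus cannot be told apart in sums over both parts.

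In all retained nuclei together, 0 of 9 members were called (0% of 14939 genes; 3083 at an unadjusted p under 0.05, and 232 higher and 261 lower by DESeq2, with no member among them). Abcc2 came nearest to the threshold, with 82.8, 72.1 and 52.8 CPM in the 1-kidney libraries, against 60.6, 47.5, 58.0 and 51.5 CPM in the 2-kidney libraries (0.37 ± 0.17, edgeR adjusted p = 0.241). The groups overlapped. Slc22a6 had the same mean in both, 323 ± 39.5 and 323 ± 40.8 CPM (SD, n = 3 and 4).

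Other organic ion and drug transporters also lay on both sides of the gate comparison. Of 47 listed genes 40 were in the tables and 30 tested, with 12 higher and 10 lower in the Slc7a13 gate (over all genes 18.6% and 18.7%) and a median log2 fold of 0.06, beside 0.00 over all 9716 genes. Slco1a1, an organic anion uptake carrier of rodents, averaged 696 ± 259 CPM in the Slc7a13 gate, against 34.7 ± 23.6 CPM in the Slc5a12 gate (SD, n = 7; log2 fold 4.63 ± 0.18, edgeR adjusted p = 4.46e-20). Its relative Slco1a6 had 6909 ± 2167 and 426 ± 323 CPM (4.32 ± 0.17), and reads shared between these close copies could blur their counts.

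Slc22a13, a carrier of nicotinate and urate, was higher in the Slc7a13 gate (4.37 ± 0.18), as were Slc15a2, a peptide carrier that also takes up beta-lactams (2.80 ± 0.14), and Abcc6 (1.64 ± 0.09). Lower in the Slc7a13 gate were Slc22a23 (−2.93 ± 0.10) and Slc17a4 (−2.65 ± 0.20). These 7 genes had the smallest p-values of the list (edgeR adjusted p at most 8.18e-13).

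Of genes that drive or anchor organic anion exchange, most of those tested were lower in the Slc7a13 gate. Of 10 listed 8 were in the tables and 7 tested, with 1 higher and 6 lower in the Slc7a13 gate, beside 18.6% and 18.7% of all genes (median log2 fold −0.72). Slc13a3, which brings in the dicarboxylates that OAT1 and OAT3 exchange, had 253 ± 90.9 CPM in the Slc7a13 gate, against 766 ± 168 CPM in the Slc5a12 gate (−1.64 ± 0.09, edgeR adjusted p = 1.22e-16). It was itself a marker used to name proximal tubule clusters, and the leading one of the convoluted cluster (4.44-fold over the median cluster). Its fold and adjusted p are therefore not read as support. The sulphate carrier gene Slc13a1 (−2.19 ± 0.12), the scaffold gene Pdzk1 (−0.75 ± 0.08) and the sodium pump beta subunit gene Atp1b1 (−0.22 ± 0.08) were lower too, as was the citrate carrier gene Slc13a2 (−0.48 ± 0.13). The scaffold gene Slc9a3r1 was higher (0.59 ± 0.11, edgeR adjusted p = 6.69e-05).

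Of 14 listed regulators 13 were tested, with 7 higher and 5 lower in the Slc7a13 gate, beside the same shares of all genes (median log2 fold 0.32). The oestrogen receptor gene Esr1 had 1434 ± 338 CPM in the Slc7a13 gate, against 492 ± 56.9 CPM in the Slc5a12 gate (SD, n = 7; log2 fold 1.51 ± 0.08, edgeR adjusted p = 1.37e-16). The dioxin receptor gene Ahr (1.24 ± 0.11) and Pparg (2.27 ± 0.26) were also higher. The fatty acid sensor gene Ppara (−1.68 ± 0.10), the bile acid receptor gene Nr1h4 (−0.80 ± 0.08) and the xenobiotic receptor gene Nr1i2 (−0.96 ± 0.14) were lower (edgeR adjusted p at most 4.90e-07 for these 6).

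Between 1-kidney and 2-kidney libraries no gene of the 3 lists was called by edgeR in any of the 4 sets of nuclei or in the test of the difference between parts. In proximal tubule nuclei the median log2 fold was −0.07 over 31 tested transporters, −0.28 over 8 drivers and scaffold genes and −0.17 over 13 regulators, beside −0.01 over all 11131 genes. At an unadjusted p under 0.05 were 9 of these transporters, 2 of the drivers and 1 of the regulators. Among the 2 transporters with the smallest p was the prostaglandin carrier gene Slco2a1 (−0.60 ± 0.16, edgeR adjusted p = 0.244). The 2 drivers with the smallest p were Slc13a2 (−0.61 ± 0.14, 0.220) and Slc13a3 (−0.87 ± 0.24, 0.244). Slc13a3 is also lower in the Slc7a13 gate, and within the convoluted cluster it stood at −0.51 ± 0.19 (edgeR adjusted p = 0.373).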

How the data were processed

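Nuclei RNA of 7 rat kidneys was measured with the 10x 3′ v3.1 assay, and the pooled library was sequenced 2 times, per the labels' protocols. The authors deposited raw UMI counts per gene and barcode. The submitters' processing notes name Cell Ranger 7.0. Neither build nor intron counting is stated in them. The labels state an average of 5293 cells per sample, which equals the mean number of deposited barcodes. Free RNA was not subtracted.

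Nuclei needed 200 genes or more and no more than 5% mitochondrial UMIs, and the nuclei with the highest Scrublet scores were removed at 0.8% per 1000 barcodes, since the automatic threshold marked at most 2 per library. Counts were scaled to 10000 per nucleus and clustered with scanpy 1.11.5 (2000 variable genes, 30 components, 20 neighbours, Leiden resolution 1, leidenalg 0.10.2). A cluster was named from fixed marker lists when 3 markers exceeded 2-fold the median cluster, the leading one 4-fold (3-fold for proximal tubule), and at most 5 lists did so. These bounds were set after seeing the data. Unnamed clusters held 20.6% ± 6.94 of 1-kidney and 16.8% ± 4.36 of 2-kidney nuclei (SD). The largest of them (3064 nuclei) held 41.0% of all retained UMIs.

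Counts were summed per library and set of nuclei and tested in edgeR 4.0.16 (filterByExpr, TMM, quasi-likelihood, Benjamini-Hochberg over all genes, threshold 0.05), with DESeq2 1.42.0 as an alternative. Group labels come from the titles. The gate test has the library as a block. Slc7a13 and Slc5a12, which define the gates, stayed in the fit and the adjustment but were left out of the counts of calls. SE is the size of the log2 fold divided by the root of F. The fits were tested on simulated counts: in the gate comparison 95% of 2-fold and 100% of 4-fold changes were recovered. Precision is limited by UMIs per member, given beside low values. Named were all 9 members, list genes past the threshold (at most 8 by smallest p, otherwise 2) and the 2 most alike genes per member among those reaching 10 CPM. Some genes that this rule names are not reported here. Members and lists were chosen with earlier results of these data known.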

Additional observations from a re-analysis of the deposited data

Results flagged for a closer look

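Among 54 checks of a member's 4 2-kidney values, 1 library stood far from the others. Slc22a7 in the convoluted cluster had 0.478 CPM in 2-kidney replicate 3, against 2.99, 3.48 and 3.25 CPM in 2-kidney replicates 1, 2 and 4. The value rests on 1 UMI. Chance marks about 1 in 20 such groups.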

How the results depend on the processing

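The gate comparison kept 8 of its 9 members called under most alternatives (8 to 9 with a library left out) and 7 with no replicate block and with gates over all retained nuclei, where Slc47a1 was lost. Gates at 2 UMIs and a 2% mitochondrial limit changed no direction. The number of members counted in a larger share of straight than convoluted nuclei was 4 at 1000 UMIs, at 500 UMIs and unthinned. Between 1-kidney and 2-kidney libraries, the 0 members called by edgeR became 1 with DESeq2 in proximal tubule nuclei (Slc22a8, −0.77) and stayed 0 under every other alternative run, among them the addition, chosen after seeing the data, of unnamed clusters rich in Slc34a1 (Slc22a8 −0.39, adjusted p = 0.266). None of the members was among the variable genes, so clusters built without them were the same clusters.

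Log2 folds of members near 0 changed sign, none of them called, and the cause was not tested. Within set P1117, and with the library set as a term in brackets, these were in all retained nuclei Slc22a6 −0.10 (−0.09), Slc22a7 −0.34 (−0.33), Slc22a12 −0.08 (−0.07), Slc22a2 0.24 (0.26), Abcc4 0.00 (0.02) and Slc47a1 (0.01). In proximal tubule they were Slc22a7 −0.21 (−0.21), Slc22a12 −0.15 (−0.16) and Slco4c1 −0.20 (−0.20). In the straight cluster they were Slc22a6 −0.15 (−0.14), Slc22a7 −0.35 (−0.35) and Slc22a2 0.16 (0.16), and in the convoluted cluster Slc22a12 −0.09 (−0.08), Slc47a1 0.03 (0.04) and Slc22a2 (0.00). In the difference between parts Slc22a2 had 0.14 within set P1117.

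With classes by marker score, proximal tubule gave Slc22a12 −0.01, Slc22a2 −0.02 and Slco4c1 −0.06, and with the unnamed clusters added Slc22a2 −0.12 and Slco4c1 −0.20. Without a filter on low counts Slc22a6 was −0.01 in all nuclei, Slco4c1 −0.01 in proximal tubule and Slc22a8 0.02 in the difference between parts. With doublets kept, Slc22a12 was 0.00 and Abcc4 −0.02 in the straight cluster, Slc22a2 0.07 in the convoluted cluster and Slco4c1 −0.22 in the difference. With the 2% limit that difference was 0.13 for Slc22a8 and −0.42 for Slco4c1.

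With a library left out, log2 folds ranged in all nuclei over −0.05 to 0.12 (Slc22a6), −0.10 to 0.29 (Slc22a7), −0.20 to 0.31 (Slc22a12) and −0.30 to 0.19 (Slc22a2). In proximal tubule they ranged over −0.06 to 0.35 (Slc22a12), −0.08 to 0.33 (Slc22a2) and −0.20 to 0.15 (Slco4c1). In the straight cluster they ranged over −0.03 to 0.24 (Slc22a6), −0.19 to 0.26 (Slc22a7), −0.21 to 0.12 (Slc22a12), −0.03 to 0.24 (Abcc2) and −0.00 to 0.14 (Abcc4). In the convoluted cluster they ranged over −0.19 to 0.05 (Slc22a6), −0.04 to 0.53 (Slc22a12) and −0.22 to 0.17 (Slc22a2). The difference between parts ranged over −0.12 to 0.11 (Slc22a8), −0.38 to 0.03 (Slc22a2) and −0.46 to 1.41 (Slco4c1). Depth limits Slc22a7 and Slco4c1 in convoluted nuclei, where single libraries hold as few as 1 and 0 UMIs.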

Other observations

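Abcc4 was lower in the 1-kidney libraries in 2 classes outside the proximal tubule as well, an observation made after the values were seen and not tested. In intercalated cells it had 696, 695 and 695 CPM in the 1-kidney libraries, against 843, 939, 1035 and 932 CPM in the 2-kidney libraries. In thin limb and parietal epithelium it had 397, 609 and 643 CPM, against 927, 739, 930 and 874 CPM. In the Slc5a12 gate of the proximal tubule it had 898, 1017 and 1028 CPM, against 1401, 1149, 1478 and 1519 CPM. That gate need not select nuclei alike in both groups, as given above. The groups did not overlap in these 3 sets of nuclei, whereas they overlapped in thick ascending limb (385, 444 and 446 CPM, against 493, 442, 505 and 448 CPM), in the straight and the convoluted cluster and in every other named class but the proximal tubule as a whole. The lowest library held 24 Abcc4 UMIs in thin limb and parietal epithelium. Other members separated the groups in some sets too, in either direction. Lower in every 1-kidney library were Slc22a8 in intercalated cells and Slc22a7 in cycling nuclei. Higher were Slc22a6 in distal convoluted tubule, Abcc2 in principal and cycling nuclei, and Abcc2 and Slco4c1 in the Slc5a12 gate. Some of these rest on few counts: Slco4c1 had 2 to 7 UMIs per library in the Slc5a12 gate, and Slc22a7 had 0 to 20 in cycling nuclei. The share of all genes that separate the groups was not counted, so separation is not read as particular to any member. With nuclei thinned to 1000 UMIs, Abcc4 was counted in 44.6% of 446 intercalated nuclei in the 1-kidney group and 52.4% of 922 in the 2-kidney group, pooled over libraries, and the libraries overlapped (36.5% to 48.4%, against 45.3% to 54.8%). The intercalated class sums the clusters led by Slc4a1 and by Slc26a4, whose Abcc4 levels differ as given above. The Slc4a1 cluster held 76, 103 and 141 nuclei in the 1-kidney libraries, against 134, 130, 187 and 197 in the 2-kidney libraries. The Slc26a4 cluster held 74, 145 and 106, against 97, 71, 134 and 114. The part of this mix in the Abcc4 values was not tested.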
